A study of Rattus norvegicus with 60 samples.

Results

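N-methyl-D-aspartate (NMDA) receptors are glutamate-gated ion channels permeable to calcium. The 6 genes described here encode subunits of them: Grin1, Grin2a, Grin2b, Grin2c, Grin2d and GRIN3A. They were chosen by symbol, ignoring case, from the 22865 genes of the RNA data, and each symbol matched 1 gene. All 6 passed the filter on low values and were among the 13153 genes tested. On the DNA side they overlapped 2143 of the 5805223 bins of 500 nt into which the genome was divided.

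The tissue was hippocampal CA1 from Sprague-Dawley rats aged 90 to 120 d. Changes in gene expression and DNA methylation were studied 1 h or 24 h after contextual threat recognition training. Threat, place and naive are separate group labels. RNA was measured in 6 threat 24 h, 5 place 24 h, 8 threat 1 h, 6 place 1 h and 9 naive libraries of polyadenylated RNA, as length- and depth-scaled fragment counts (FPKM). Methylated DNA was captured with a methyl-binding domain (MBD) protein and measured at each time in 3 threat, 4 place and 3 naive libraries, beside 3 input libraries without capture, as length- and depth-scaled read counts (RPKM). No collection time is labelled for naive RNA. The labels do not describe what threat and place animals experienced beyond the training, and name no allele or drug. Whether the libraries of a group are from different animals is not stated either, so the spread on which p-values rest here may be technical.

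An NMDA receptor is a tetramer built on GluN1, the product of Grin1, which binds the co-agonists glycine and D-serine and is required in every such receptor. GluN2 subunits, from Grin2a to Grin2d, bind glutamate and set the channel's kinetics and its block by magnesium, while GluN3 subunits bind glycine and lower calcium permeability. In rodent CA1 pyramidal cells GluN2A and GluN2B predominate, and the receptor is required there for long-term potentiation at the synapses from CA3 and for many forms of spatial and contextual learning. GluN3A is abundant early in postnatal life and declines with age.

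An MBD protein holds DNA through methylated CpG dinucleotides, so the CpGs at a gene's start set how much signal that position can give. Promoters were matched in RefSeq (build GRCr8) for 4 of the 6 genes, Grin1, Grin2c, Grin2d and GRIN3A, and are shown for that reason, from 250 bases before to 50 after the start of the RefSeq gene. They are printed 5′ to 3′ with every CpG in capitals. The start of a gene in the deposited data (rat build rn5) may not be the same base. Grin2c is on the plus strand there and on the minus strand in GRCr8. All 10 genes within 200 kb of it with a strand in both, Grin2c among them, are on opposite strands in the 2 builds, and Fdxr lies on the start side of Grin2c in each.
Grin1 (chr3:28528705-28529004, minus strand): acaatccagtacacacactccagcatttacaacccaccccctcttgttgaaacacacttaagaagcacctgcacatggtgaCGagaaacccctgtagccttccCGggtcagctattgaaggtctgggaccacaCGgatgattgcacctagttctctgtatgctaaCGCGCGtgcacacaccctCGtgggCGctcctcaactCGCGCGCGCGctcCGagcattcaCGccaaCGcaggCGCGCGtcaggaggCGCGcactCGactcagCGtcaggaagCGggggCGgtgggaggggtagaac
Grin2c (chr10:101005089-101005388, minus strand): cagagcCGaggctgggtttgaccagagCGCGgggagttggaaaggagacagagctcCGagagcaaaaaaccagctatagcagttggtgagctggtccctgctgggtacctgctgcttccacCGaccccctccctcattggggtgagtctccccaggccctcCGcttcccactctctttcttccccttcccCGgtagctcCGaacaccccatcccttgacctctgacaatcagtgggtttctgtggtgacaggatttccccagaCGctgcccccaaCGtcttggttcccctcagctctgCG
Grin2d (chr1:105481187-105481486, minus strand): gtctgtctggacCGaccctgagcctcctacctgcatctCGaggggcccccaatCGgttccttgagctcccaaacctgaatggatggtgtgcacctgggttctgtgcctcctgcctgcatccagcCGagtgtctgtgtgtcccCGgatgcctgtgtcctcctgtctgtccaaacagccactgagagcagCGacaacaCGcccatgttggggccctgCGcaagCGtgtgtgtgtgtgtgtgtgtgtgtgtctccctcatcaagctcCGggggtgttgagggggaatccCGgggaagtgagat
GRIN3A (chr5:69001509-69001808, minus strand): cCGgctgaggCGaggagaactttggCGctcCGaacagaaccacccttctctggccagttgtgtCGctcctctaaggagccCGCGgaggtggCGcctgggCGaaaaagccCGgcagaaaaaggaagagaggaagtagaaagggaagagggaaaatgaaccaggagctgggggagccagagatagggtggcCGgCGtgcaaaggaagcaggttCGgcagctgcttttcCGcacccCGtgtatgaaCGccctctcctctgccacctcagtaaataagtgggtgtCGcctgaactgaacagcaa
The motif searched was CG, which reads the same on both strands. It occurred 25 times in the Grin1 promoter, and 16.6% of the 33469 promoters of this length held at least as many. GRIN3A had 17 CpGs, a number reached by 29% of promoters. Grin2c and Grin2d had 11 each, reached by 39% of promoters, against a median of 7 over all.

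The RNA data give no read totals, but relative depth, read from the steps between low FPKM values, ran from 0.838 to 1.22 of the median library. The MBD values came out as whole reads at 100% of values within a tolerance of 0.1 reads, and captured libraries held 31.4 to 35.7 M reads (1 h) or 42.2 to 58.5 M reads (24 h). CA1 markers were present throughout, with 40.9 to 160 FPKM of Wfs1 and 1.54 to 16.6 FPKM of Fibcd1, while the dentate gyrus marker Prox1 reached 0.62 to 12.3 FPKM. Threat 1 h libraries 4 and 7 were rich in choroid plexus transcripts, and naive libraries 5 to 9, which stand in a separate block of columns in the deposited data, differed from naive libraries 1 to 4 in 1926 of 13153 genes (14.6%, limma). The blocks are not a labelled batch and were known from earlier results.

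Grin1, the obligatory subunit, was the most abundant of the 6 in all 34 libraries and the steadiest. Its level was 79.8 ± 2.75 FPKM in threat 24 h libraries (SD, n = 6), 79.6 ± 7.31 FPKM in place 24 h (n = 5), 80.1 ± 2.60 FPKM in threat 1 h (n = 8), 85.2 ± 5.26 FPKM in place 1 h (n = 6) and 81.1 ± 4.38 FPKM in naive libraries (n = 9). The highest library held 1.4 times the FPKM of the lowest, 95 FPKM in a place 1 h library and 68.0 FPKM in a place 24 h library. The 5 ranges overlapped. By mean level, Grin1 lay above 95.8% of the tested genes.

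Grin2c, Grin2a and Grin2b followed. Grin2c encodes GluN2C, the main GluN2 subunit of cerebellar granule cells, and averaged 16.5 FPKM over the 34 libraries (range 11.6 to 21.8). It ranked second in 27 libraries. Grin2a averaged 11.5 FPKM (6.26 to 18.5) and Grin2b 11.4 FPKM (8.36 to 16.1). Grin2a ranked second in 6 libraries and Grin2b in 1. FPKM is per length, so these levels can be set beside each other, but the gene models behind the lengths are not given in the sources used here. Grin2a and Grin2b did not differ in mean level beyond their spread.

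GRIN3A and Grin2d were the lowest, with GRIN3A above Grin2d in all 34 libraries and both below the other 4 genes. GRIN3A averaged 2.22 FPKM (1.24 to 4.67) and Grin2d, whose product GluN2D is known from interneurons and midbrain neurons in rodents, averaged 1.22 FPKM (0.912 to 1.56). Between libraries GRIN3A varied most of the 6, by 3.76 times from lowest to highest, followed by Grin2a at 2.95 times. A further GluN3 gene, Grin3b, is not among the 6 and was listed at 0 to 0.0775 FPKM. As shares of the summed FPKM of the 6 genes, Grin1 made up 65.6 ± 2.54% (SD, n = 34), Grin2c 13.4 ± 2.70%, Grin2b 9.14 ± 1.30%, Grin2a 9.12 ± 2.19%, GRIN3A 1.79 ± 0.703% and Grin2d 0.991 ± 0.126%.

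**Figure D1:**
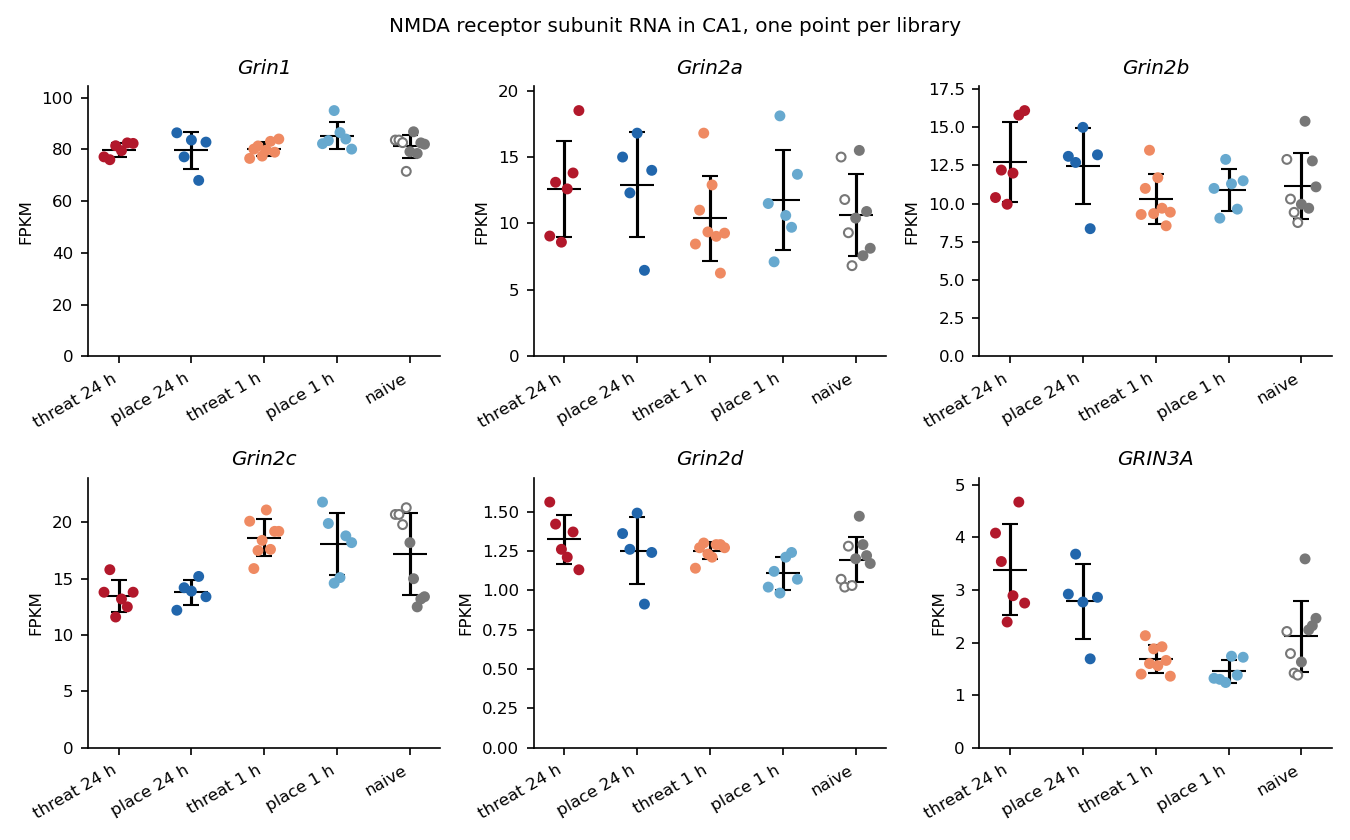
FPKM of each subunit gene in every RNA library, by group, with the group mean and SD as black bars; open circles in the naive group are libraries 1 to 4 and filled ones libraries 5 to 9. GRIN3A is higher and Grin2c lower in the 24 h groups than in the 1 h groups, while Grin1 lies between 68.0 and 95 FPKM throughout.

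GRIN3A was higher at 24 h than at 1 h. It had 2.39, 3.22 and 4.67 FPKM (lowest, median and highest) in threat 24 h libraries, against 1.36, 1.63 and 2.13 FPKM in threat 1 h libraries. The 2 groups did not overlap, as for 10.9% of tested genes in this comparison. On the log2(FPKM + 1) scale GRIN3A rose by 0.69 ± 0.124 (SE; limma, adjusted p = 0.000131), and the ratio of mean FPKM was 2.01. Called genes (adjusted p under 0.05 over all 13153) made up 29.3% of those tested in this comparison, 12.5% higher and 16.8% lower, so a change here is common. In bulk tissue, fewer or more cells of a type and less or more RNA per cell cannot be told apart. The GRIN3A call held in all 14 fits that left out 1 library (adjusted p = 8.19e-05 to 0.000731).

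The same comparison in place animals gave a similar size. Place 24 h libraries had 2.92, 3.68, 2.77, 1.69 and 2.86 FPKM of GRIN3A, against 1.24, 1.35 and 1.74 FPKM (lowest, median and highest) in place 1 h libraries. The lowest place 24 h library lay inside the place 1 h range and the other 4 lay above it, while 8.43% of tested genes had groups without overlap. GRIN3A rose by 0.61 ± 0.140 on the log2(FPKM + 1) scale (limma, adjusted p = 0.00459). In this comparison 13.3% of tested genes were called, 6.61% of those tested higher and 6.64% lower. The difference between 24 h and 1 h libraries did not differ detectably between threat and place: the interaction was 0.08 ± 0.187 (limma, adjusted p = 1, 2 SE from -0.29 to 0.45). No gene of the 13153 was called for it by limma (0%), and 360 had an unadjusted p under 0.05.

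Against naive libraries GRIN3A was called at 24 h in threat animals. The naive libraries had 1.38, 2.21 and 3.59 FPKM (lowest, median and highest), so they overlapped the threat 24 h libraries. GRIN3A rose by 0.50 ± 0.121 in threat 24 h relative to naive libraries (limma, adjusted p = 0.00853), where 10.1% of genes were called, 4.32% higher and 5.77% lower. With the fit restricted to these 2 groups the adjusted p was 0.0593. In place 24 h the difference from naive was 0.29 ± 0.129 (adjusted p = 0.185), where 5.05% of genes were called. Threat 24 h minus place 24 h was 0.21 ± 0.140 (adjusted p = 1, 2 SE from -0.07 to 0.49), in a comparison where limma called 0% of genes and 381 had an unadjusted p under 0.05. The comparisons with naive share the naive libraries.

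At 1 h GRIN3A did not pass the test. Its mean was 1.69 ± 0.268 FPKM in threat 1 h (SD, n = 8) and 1.45 ± 0.221 FPKM in place 1 h (n = 6), against 2.12 ± 0.681 FPKM in naive libraries (n = 9). The differences from naive were -0.19 ± 0.112 (SE) in threat 1 h (adjusted p = 0.411) and -0.32 ± 0.121 in place 1 h (adjusted p = 0.346), both from limma. Called genes made up 0.928% and 0.129% of the tested genes in the threat and place comparisons at 1 h.

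These comparisons depended on which naive libraries were used. GRIN3A averaged 2.45 FPKM in naive libraries 5 to 9 and 1.70 FPKM in naive libraries 1 to 4, a difference of 0.34 ± 0.147 (adjusted p = 0.147). Threat 24 h exceeded naive 1 to 4 by 0.69 (adjusted p = 0.000231) and naive 5 to 9 by 0.35 (adjusted p = 0.296). Place 24 h exceeded naive 1 to 4 by 0.48 (adjusted p = 0.0116) and naive 5 to 9 by 0.14 (adjusted p = 0.726). In the other direction, place 1 h lay below naive 5 to 9 by a log2 difference of -0.47 (adjusted p = 0.0168) and differed from naive 1 to 4 by -0.13 (adjusted p = 0.86). Called genes made up 29.6% (threat 24 h) and 23.7% (place 24 h) of those tested against naive 1 to 4, and 0.456% and 0.0836% against naive 5 to 9. For place 1 h they made up 12.7% against naive 5 to 9 and 0.038% against naive 1 to 4.

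Some markers of neighbouring regions were higher at 24 h than at 1 h, as GRIN3A was. Of 10 genes marking subiculum and neighbouring cortex, 4 were higher and 1 was lower in threat 24 h relative to threat 1 h. Over all tested genes 12.5% were higher and 16.8% lower. Etv1 (27.5 against 17.3 FPKM) and Fezf2 (18.3 against 12 FPKM) were among the higher, and Cux2 (4.77 against 8.32 FPKM) was lower. In place 24 h relative to place 1 h 3 were higher, beside 6.61% over all. Relative to naive, Fezf2 alone was called in threat 24 h, and the median log2 difference of the 10 was -0.02. Their summed level was 174 to 249 FPKM in threat 24 h, 175 to 234 FPKM in place 24 h, 126 to 164 FPKM in threat 1 h, 115 to 170 FPKM in place 1 h and 136 to 202 FPKM in naive libraries, and none of the 10 was under 0.1 FPKM on average. The summed level of 14 interneuron markers was 483 to 552 FPKM in threat 24 h, against 337 to 547 FPKM in threat 1 h. Of the 13 tested, Gad1 alone was called in that comparison and was higher. Slc32a1 was higher and Npy lower in place 24 h relative to place 1 h. Of 9 CA1 pyramidal markers, Ndst4 alone was called in threat 24 h relative to threat 1 h (9.19 against 3.87 FPKM). Of 6 tested thalamus markers, Slc17a6 was higher and Prkcd and Lef1 were lower in that comparison. In place 24 h relative to place 1 h, all 3 tested blood cell markers were higher, beside 6.61% of all tested genes. Among them was the globin gene Hba-a2 (150 against 83.4 FPKM). The 4 listed blood markers summed to 126 to 354 FPKM in place 24 h and 85.4 to 158 FPKM in place 1 h. Of 10 microglia markers 3 were higher there, among them P2ry12 and C1qa, with a summed level of 172 to 208 FPKM in place 24 h and 126 to 176 FPKM in place 1 h. C1qa alone of the 10 was higher in threat 24 h relative to threat 1 h (45.8 against 38.2 FPKM), and none of the 3 blood markers passed there. The part of any of these markers in the GRIN3A and Grin2c results was not tested.

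Grin2c went the other way. It had 11.6, 13.5 and 15.8 FPKM (lowest, median and highest) in threat 24 h libraries, against 15.9, 18.8 and 21.1 FPKM in threat 1 h libraries. These groups did not overlap either, as for 10.9% of tested genes, and 16.8% of genes were called lower in this comparison. Grin2c fell by 0.44 ± 0.105 on the log2(FPKM + 1) scale in threat 24 h relative to threat 1 h (limma, adjusted p = 0.002), a ratio of mean FPKM of 0.723, and the call held in all 14 fits without 1 library (highest adjusted p = 0.00718).

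In place animals Grin2c had 12.2, 14.2, 13.9, 15.2 and 13.4 FPKM at 24 h, against 14.6, 18.5 and 21.8 FPKM (lowest, median and highest) at 1 h. The ranges met between 14.6 and 15.2 FPKM. It fell by 0.36 ± 0.118 in place 24 h relative to place 1 h (limma, adjusted p = 0.0395), where 6.64% of genes were called lower. This call was close to the threshold and held in 3 of 11 fits without 1 library. It was lost without place 1 h library 1, 2, 5 or 6 (adjusted p = 0.0578 to 0.104) and without place 24 h library 1, 2, 3 or 5 (adjusted p = 0.0631 to 0.101). The interaction of training and time was -0.08 ± 0.157 (adjusted p = 1, 2 SE from -0.40 to 0.23).

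Relative to naive libraries, Grin2c fell by 0.31 ± 0.102 in threat 24 h (limma, adjusted p = 0.0492), where 5.77% of genes were called lower. The naive values were 12.5, 18.2 and 21.3 FPKM (lowest, median and highest). The call held in 5 of 15 fits without 1 library. It was lost without naive library 1, 2, 3, 4 or 5 (adjusted p = 0.0715 to 0.114) and without threat 24 h library 1, 3, 4, 5 or 6 (adjusted p = 0.0692 to 0.109). In place 24 h the difference from naive was -0.27 ± 0.108 (adjusted p = 0.134). At 1 h the differences were 0.13 ± 0.0943 in threat (adjusted p = 0.514) and 0.08 ± 0.102 in place (adjusted p = 0.854). Threat and place differed by -0.03 ± 0.118 at 24 h (2 SE from -0.27 to 0.20) and by 0.05 ± 0.105 at 1 h (2 SE from -0.16 to 0.26).

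The naive group itself was split for Grin2c. Naive libraries 1 to 4 had 20.7, 20.7, 19.8 and 21.3 FPKM, and libraries 5 to 9 had 18.2, 15, 12.5, 13.2 and 13.4 FPKM. The groups of columns did not overlap, as for 16.8% of tested genes, and libraries 5 to 9 were lower by a log2 difference of -0.50 ± 0.0925 (limma, adjusted p = 0.00728). Threat 24 h differed from naive 1 to 4 by -0.59 (adjusted p = 1.05e-05) and from naive 5 to 9 by -0.09 (adjusted p = 0.788). Threat 1 h differed from naive 1 to 4 by -0.14 (adjusted p = 0.668) and from naive 5 to 9 by 0.35 (adjusted p = 0.0046). The direction at 1 h differed between the blocks, and 19.8% of genes were called for threat 1 h against naive 5 to 9 and 0.22% against naive 1 to 4. In Grin2c and GRIN3A the sign of naive 5 to 9 minus naive 1 to 4 was that of 24 h minus 1 h. For GRIN3A this naive difference was 0.34 ± 0.147 and was not called. No batch is labelled, and the part of such a split in the 24 h against 1 h results was not tested.

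Some vascular markers were lower in threat 24 h, as Grin2c was. Of 9 endothelial and mural genes, 5 were lower in threat 24 h relative to threat 1 h, beside 16.8% of all tested genes. Relative to naive 4 were lower, beside 5.77% of all. None was higher, and none of the 9 passed in the place comparisons. Against naive, 5 of the 9 had an unadjusted p under 0.05 (limma) in threat 24 h and 5 in place 24 h. Of all 13153 tested genes, 3448 and 2878 had such a p. The median log2 differences of the 9 from naive were -0.21 in threat 24 h and -0.18 in place 24 h. Between threat 24 h and place 24 h their median was -0.05, with 0 of the 9 under 0.05. The pericyte gene Rgs5 averaged 19.3 FPKM in threat 24 h, 31.7 FPKM in threat 1 h and 28.2 FPKM in naive libraries. The summed level of the 9 was 87.7 to 108 FPKM in threat 24 h, 100 to 129 FPKM in place 24 h, 102 to 137 FPKM in threat 1 h, 92.0 to 131 FPKM in place 1 h and 99.3 to 147 FPKM in naive libraries. Of 10 astrocyte markers, 2 were lower and 1 was higher in threat 24 h relative to threat 1 h, beside 16.8% and 12.5% over all. The glutamate transporter Slc1a2 was lower, at 245 against 329 FPKM. It was also lower in place 24 h, at 230 FPKM against 314 FPKM in place 1 h and 300 FPKM in naive libraries. The summed level of the 10 was 1873 to 2241 FPKM in threat 24 h and 1925 to 2367 FPKM in threat 1 h. The part of these markers in the Grin2c result was not tested.

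**Figure D2:**
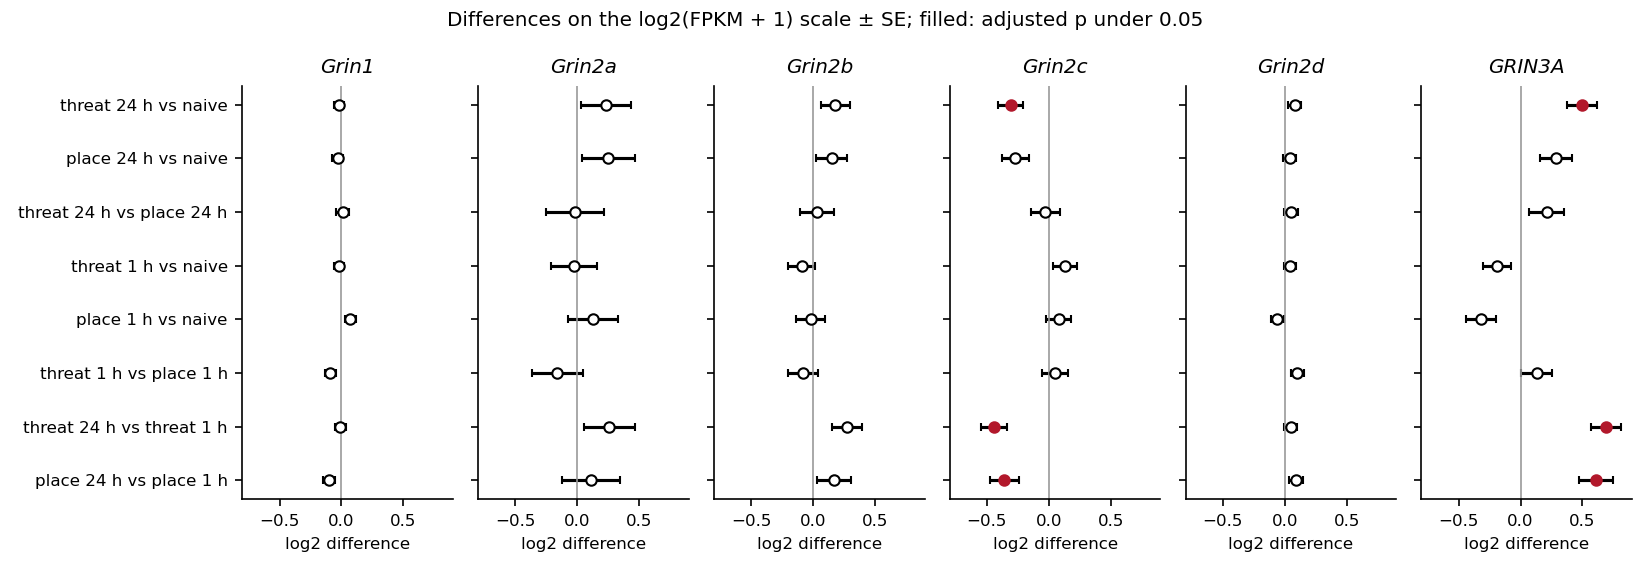
Differences in each comparison on the log2(FPKM + 1) scale for the 6 genes, as points with SE bars; filled points have an adjusted p under 0.05 over all tested genes. The filled points are GRIN3A and Grin2c in threat 24 h against naive and in both 24 h against 1 h comparisons.

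Grin2a and Grin2b, which encode the GluN2A and GluN2B subunits of the mature and the early forebrain receptor, passed the test in no comparison with the settings used throughout. Grin2b had 9.96, 12.1 and 16.1 FPKM (lowest, median and highest) in threat 24 h, against 8.55, 9.57 and 13.5 FPKM in threat 1 h libraries. The difference was 0.27 ± 0.121 (limma, adjusted p = 0.0897), and it was called in 2 of 14 fits without 1 library, those without threat 1 h library 3 (0.32) or threat 24 h library 3 (0.33). With array weights in limma Grin2b rose by 0.30 in threat 24 h relative to threat 1 h (adjusted p = 0.0153) and by 0.27 in place 24 h relative to place 1 h (adjusted p = 0.0481). Grin2a had 8.59, 12.8 and 18.5 FPKM in threat 24 h, against 6.26, 9.32 and 16.8 FPKM in threat 1 h, a difference of 0.26 ± 0.207 (adjusted p = 0.356, 2 SE from -0.15 to 0.68). In both genes the ranges overlapped over most of their length.

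Grin1 and Grin2d passed in none of the 8 comparisons with those settings either. For Grin1 the largest differences by size were -0.10 ± 0.0503 in place 24 h against place 1 h (limma, adjusted p = 0.185) and -0.09 ± 0.0448 in threat 1 h against place 1 h (adjusted p = 1). After quantile normalization Grin1 fell by 0.16 in place 24 h relative to place 1 h (limma, adjusted p = 0.0357). Grin2d was highest in threat 24 h (1.13, 1.32 and 1.56 FPKM as lowest, median and highest) and lowest in place 1 h (0.982, 1.09 and 1.24 FPKM). Its difference was 0.10 ± 0.0528 between threat 1 h and place 1 h (limma, adjusted p = 1). Against naive, the intervals of 2 SE for Grin1 stayed within -0.12 and 0.16 in all 4 comparisons.

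The balance of Grin2a to Grin2b was set out as a ratio within each library, which does not depend on how libraries were scaled. The ratio of FPKM averaged 0.979 ± 0.126 in threat 24 h (SD, n = 6), 1.01 ± 0.150 in place 24 h (n = 5), 0.987 ± 0.148 in threat 1 h (n = 8), 1.06 ± 0.214 in place 1 h (n = 6) and 0.945 ± 0.163 in naive libraries (n = 9). It was near 1 in each group. In exact 2-sided permutation tests over the 8 comparisons, differences in the mean log2 ratio ran from -0.10 to 0.16, with p = 0.268 to 0.941 and Benjamini-Hochberg adjusted p = 0.836 to 0.941. The 0.16 was place 1 h minus naive, and threat 24 h minus naive was 0.06 (exact p = 0.617).

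The pair varied together from library to library. Over 34 libraries Pearson's r of log2(FPKM + 1) between Grin2a and Grin2b was 0.896 and Spearman's rho 0.908 (permutation p = 1e-05 for each, the smallest 100000 resamples can give, and adjusted p = 7.5e-05 over the 15 pairs of genes). Without the 2 libraries farthest from the median of Grin2a r was 0.875. Within groups r was 0.916 in threat 24 h (n = 6), 0.972 in threat 1 h (n = 8), 0.949 in place 1 h (n = 6) and 0.817 in naive libraries (n = 9), and place 24 h had too few. A place 1 h library with 18.1 FPKM of Grin2a had 12.9 FPKM of Grin2b, and a place 24 h library with 6.47 FPKM of Grin2a had 8.36 FPKM of Grin2b.

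GRIN3A and Grin2c ran against each other over the 34 libraries, with r = -0.702 and rho = -0.721 (permutation p = 1e-05 for each, adjusted p = 7.5e-05 over 15 pairs). Both genes differed between 24 h and 1 h, and the relation did not hold within every group: r was 0.257 in threat 24 h, -0.752 in threat 1 h, -0.254 in place 1 h and -0.630 in naive libraries. After subtracting group means r was -0.416, and without the 2 libraries farthest from the median it was -0.705. GRIN3A and Grin2d, the least abundant pair, had r = 0.627 pooled (permutation p = 9e-05, adjusted p = 0.00045), with rho = 0.557 (permutation p = 0.00077, adjusted p = 0.00289). It was 0.588 without the 2 farthest libraries and 0.622 after subtracting group means.

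**Figure D3:**
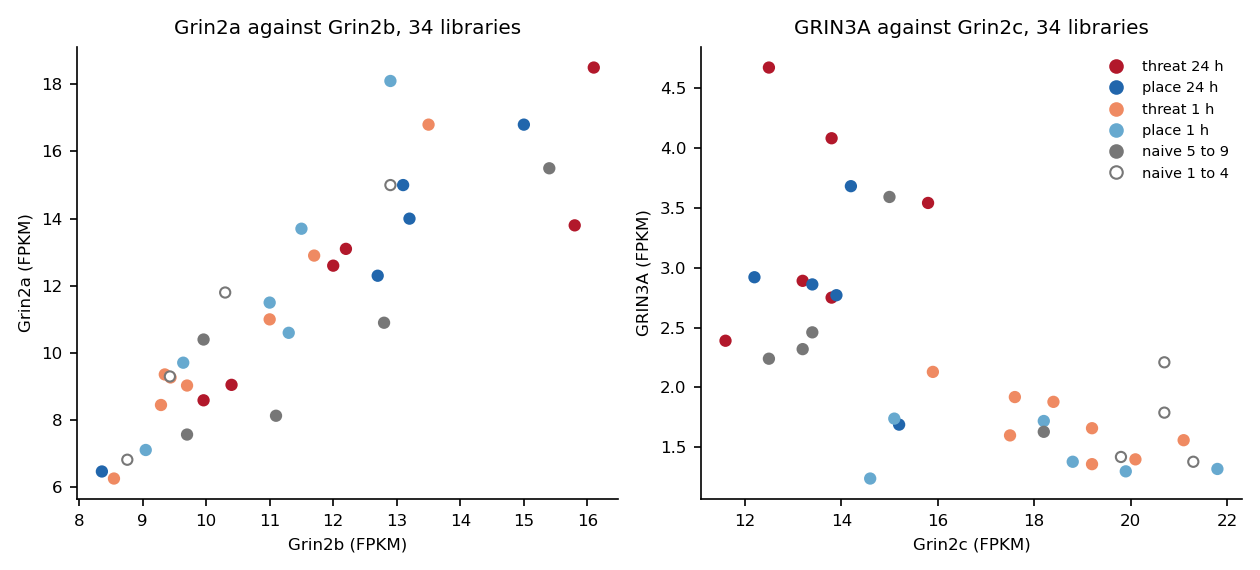
Left, Grin2a against Grin2b in FPKM, with 1 point per RNA library coloured by group; right, GRIN3A against Grin2c in the same way, with naive libraries 1 to 4 as open circles. Grin2a and Grin2b rise together in every group, whereas on the right the 24 h libraries lie at low Grin2c and, except for 1 place 24 h library at 1.69 FPKM, at high GRIN3A.

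Among all 13152 other tested genes, those most like each subunit over the 34 libraries were listed by Pearson's r, as a description. Grin2a was closest to Nr3c2, the mineralocorticoid receptor (r = 0.953), Trim2 (0.951) and Ppp3ca, a calcineurin catalytic subunit (0.949). Grin2b was closest to Gria2, an AMPA receptor subunit (0.945), Slitrk5 (0.941) and RGD1307597 (0.940). The nearest genes to GRIN3A were Nsg2 (0.917), Pde1a (0.909) and Rab9b (0.903), and those to Grin2c were Epas1, a hypoxia-inducible factor abundant in endothelium (0.914), Igfbp7 (0.905) and Col11a2 (0.900). Grin1 had no close match (RGD1559751 at 0.767, Chn1 at 0.762, RGD1306556 at 0.757), nor had Grin2d (Tacr3 and Htr2c at 0.668, Apip at 0.667).

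Genes that work with the receptor were counted from 4 lists. Of 16 tested scaffolds and adaptors, 2 were higher and 1 was lower in threat 24 h relative to threat 1 h. Over all tested genes 12.5% were higher and 16.8% lower. The median log2 difference of the 16 was -0.02 beside -0.01 over all genes. Fbxo2, which in rodents directs ubiquitination of NMDA receptor subunits, had 63.1 against 53.9 FPKM (log2 difference 0.22 ± 0.0697, limma, adjusted p = 0.0152), and Lin7a had 3.24 against 2.40 FPKM. The ubiquitin ligase Mib2 was lower, at 24.7 against 28.1 FPKM (-0.18 ± 0.0577, adjusted p = 0.0178), and was also lower in place 24 h relative to place 1 h (23.7 against 27.5 FPKM) and to naive libraries (27.8 FPKM).

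Of 25 kinases and phosphatases, 3 were higher and 2 lower in threat 24 h relative to threat 1 h, beside 12.5% and 16.8% over all. Src, a kinase that raises NMDA receptor currents, had 22.6 FPKM in threat 24 h against 27.6 FPKM in threat 1 h (-0.28 ± 0.0600, limma, adjusted p = 0.000775). Ptpn5, the phosphatase STEP, which opposes Src and dephosphorylates GluN2B, had 28.2 against 35.2 FPKM (-0.31 ± 0.0719, adjusted p = 0.00164). Both were also lower in place 24 h relative to place 1 h, Src at 22.1 against 26.6 FPKM and Ptpn5 at 29.5 against 35.3 FPKM. The phosphatase genes Ppp3cb (105 against 81.7 FPKM), Ppp3r1 (202 against 163 FPKM) and Ppp1ca (108 against 97.7 FPKM) were higher in threat 24 h than in threat 1 h. Relative to naive, 1 gene was higher and 1 lower in threat 24 h, Ppp1ca at 108 against 98.1 FPKM and Ptpn5 at 28.2 against 34.6 FPKM. In that comparison 4.32% of all tested genes were higher and 5.77% lower.

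Of 15 calcium and Ras signalling genes, 3 were higher and none was lower in threat 24 h relative to threat 1 h: the calmodulin genes Calm2 (607 against 467 FPKM, 0.38 ± 0.0601, limma, adjusted p = 2.88e-05) and Calm3 (809 against 727 FPKM), and Rheb (72.3 against 66.7 FPKM). Calm2 was also higher in place 24 h relative to place 1 h, and in threat 24 h relative to naive. The neuronal nitric oxide synthase Nos1 was higher too in threat 24 h relative to naive (3.95 against 3.01 FPKM), as were 4.32% of all tested genes. Of 9 tested genes for supply of the co-agonists, 2 were lower in threat 24 h relative to threat 1 h, the D-serine and alanine transporter Slc7a10 (11.5 against 14.4 FPKM, -0.29 ± 0.0939, adjusted p = 0.0179) and Shmt2 (7.85 against 8.51 FPKM). Over the 4 lists, 8 of 65 tested genes were higher and 5 lower in threat 24 h relative to threat 1 h, beside 12.5% higher and 16.8% lower over all tested genes. In place 24 h relative to place 1 h, 2 were higher and 3 lower, beside 6.61% and 6.64% over all. limma called 0 of the 65 at 1 h against naive, where 9 (threat) and 2 (place) had an unadjusted p under 0.05. It also called 0 between threat and place, where 1 at 24 h and 2 at 1 h were under 0.05.

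In each of the 6 genes, captured signal relative to input was higher over the whole gene than at its start, at both times. Averaged over all bins of the gene at 1 h, Grin2c had 1.47 RPKM in captured libraries and 0.505 RPKM in input, a ratio of 2.90 that lay above 91.9% of 22724 genes. Grin2d had a ratio of 1.85, Grin1 1.23, Grin2b 1.01, Grin2a 0.884 and GRIN3A 0.633, the last above 30.5% of genes. The order was nearly the same at 24 h, from 1.69 in Grin2c to 0.850 in GRIN3A, with Grin2a and Grin2b both at 1.04. So the subunit gene with the most captured DNA per base was Grin2c, and GRIN3A was below its input at both times.

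Within 1 kb of the gene start, captured signal was below input in all 6 genes at both times. Grin2c had 0.0408 RPKM captured against 0.361 RPKM in input at 1 h, a ratio of 0.113, and Grin2d 0.0831 against 0.585 RPKM, a ratio of 0.142. Their promoters, printed above, held 11 CpGs each, over 300 nt and not the 1 kb either side measured here. The part of CpG number in the low signal was not tested. The ratio at 1 h was 0.670 in Grin1, 0.562 in Grin2b, 0.489 in GRIN3A and 0.440 in Grin2a. At 24 h the ratios ran from 0.175 in Grin2d to 0.798 in Grin2b. Low signal at starts was common, since the Grin1 ratio at 1 h lay above 64.8% of 22685 genes. That was the highest rank of the 6 at 1 h, and the lowest was Grin2c, above 30.4% of genes. At 24 h the Grin2d ratio lay above 10.2% of 22786 genes, and the others above 31.5% (Grin2c) to 59.7% (Grin2b).

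**Figure D4:**
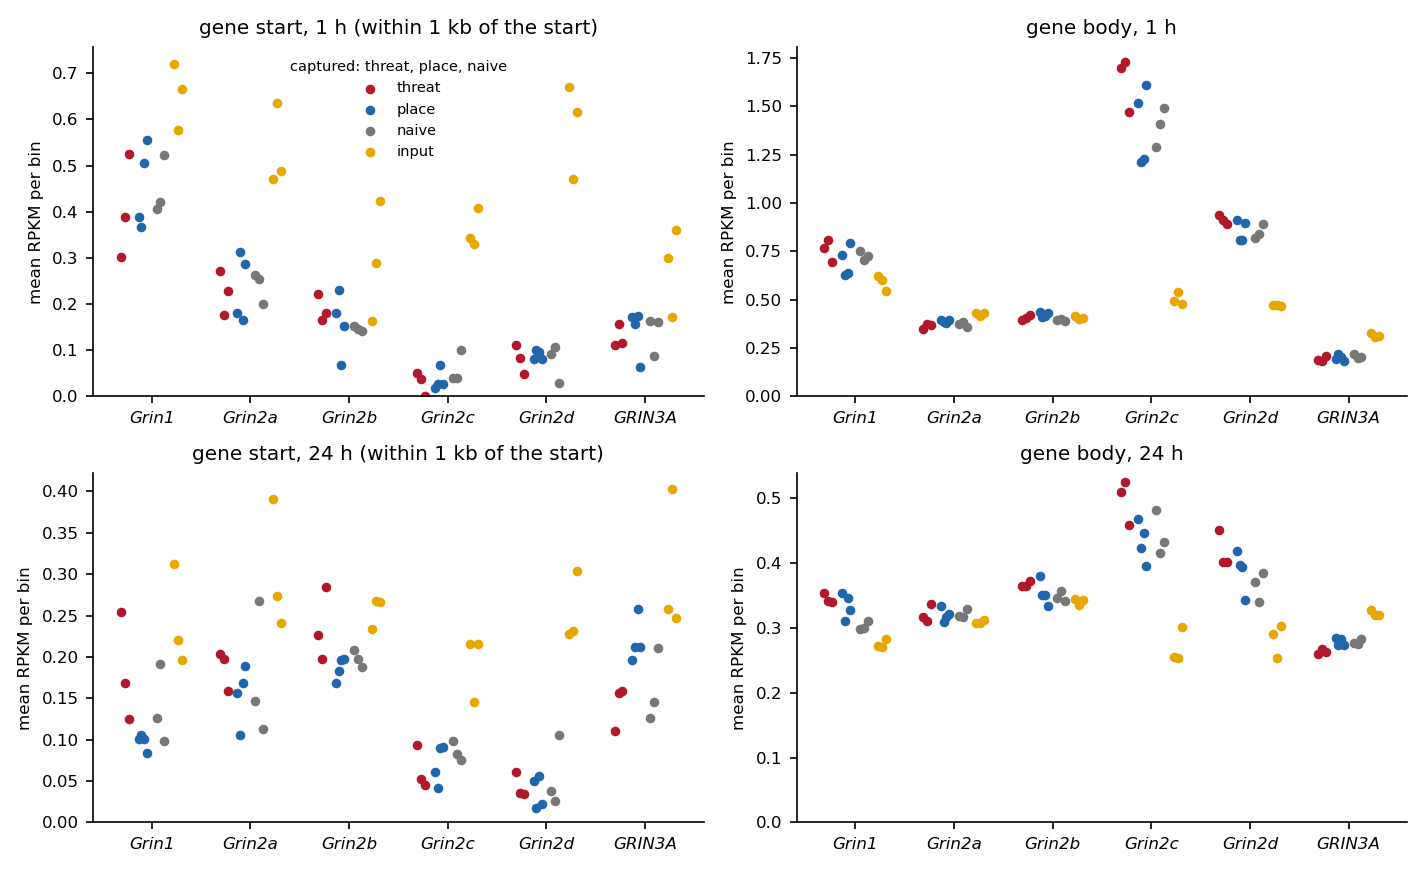
Mean RPKM per bin in each MBD library, within 1 kb of the gene start (left) and over the whole gene (right), at 1 h (top) and 24 h (bottom), with captured threat, place and naive libraries and input libraries as points. At gene starts the input means lie above the captured means in all 6 genes, and over the gene the captured libraries lie above input in Grin2c, more so at 1 h, and below it in GRIN3A.

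Captured DNA within the genes was concentrated in separate peaks. In Grin2b the highest tested bin lay 0.967 kb inside the 3′ end of the gene, more than 400 kb from its start (chr4:233825001-233825500, rn5), with 6.72 RPKM captured and 0.455 RPKM in input at 1 h. Its 1 h libraries had 8.85, 7.26 and 5.73 RPKM in threat, 7.15, 5.70, 6.03 and 7.88 RPKM in place and 5.85, 6.22 and 6.53 RPKM in naive animals. The groups overlapped. In Grin2a (chr10:4527220-4936773) the highest bin was intragenic, 245 kb from the start, with 5.81 RPKM captured and 1.31 RPKM in input. In Grin2c (chr10:104480212-104497817) it lay 2.79 kb from the start, with 6.43 and 1.35 RPKM.

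The highest bin of GRIN3A lay 127 kb from its start (chr5:69437501-69438000) and had 4.84 RPKM captured against 0.704 RPKM in input at 1 h. It lies in the position of another gene on the same strand inside GRIN3A, the calcineurin subunit gene Ppp3r2 (chr5:69437021-69438018), which was listed at 0 to 0.0875 FPKM in the RNA libraries. This was also the only bin of GRIN3A tested at 24 h. In Grin2d (chr1:102899803-102935845) the highest bin had 4.61 RPKM captured and 1.02 RPKM in input, 25.8 kb from the start, and in Grin1 (chr3:2489166-2515963) 3.18 and 0.662 RPKM, 13.5 kb from the start. The Grin1 gene also holds ENSRNOG00000046756, on the other strand, with a mean of 0.678 FPKM. Exons and introns are not annotated in the files, so these bins are placed by distance alone. Across the bins of each gene, captured means at 1 h and 24 h correlated with r = 0.655 (Grin2a, 820 bins) to 0.812 (Grin1, 54 bins), as a description across neighbouring bins.

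**Figure D5:**
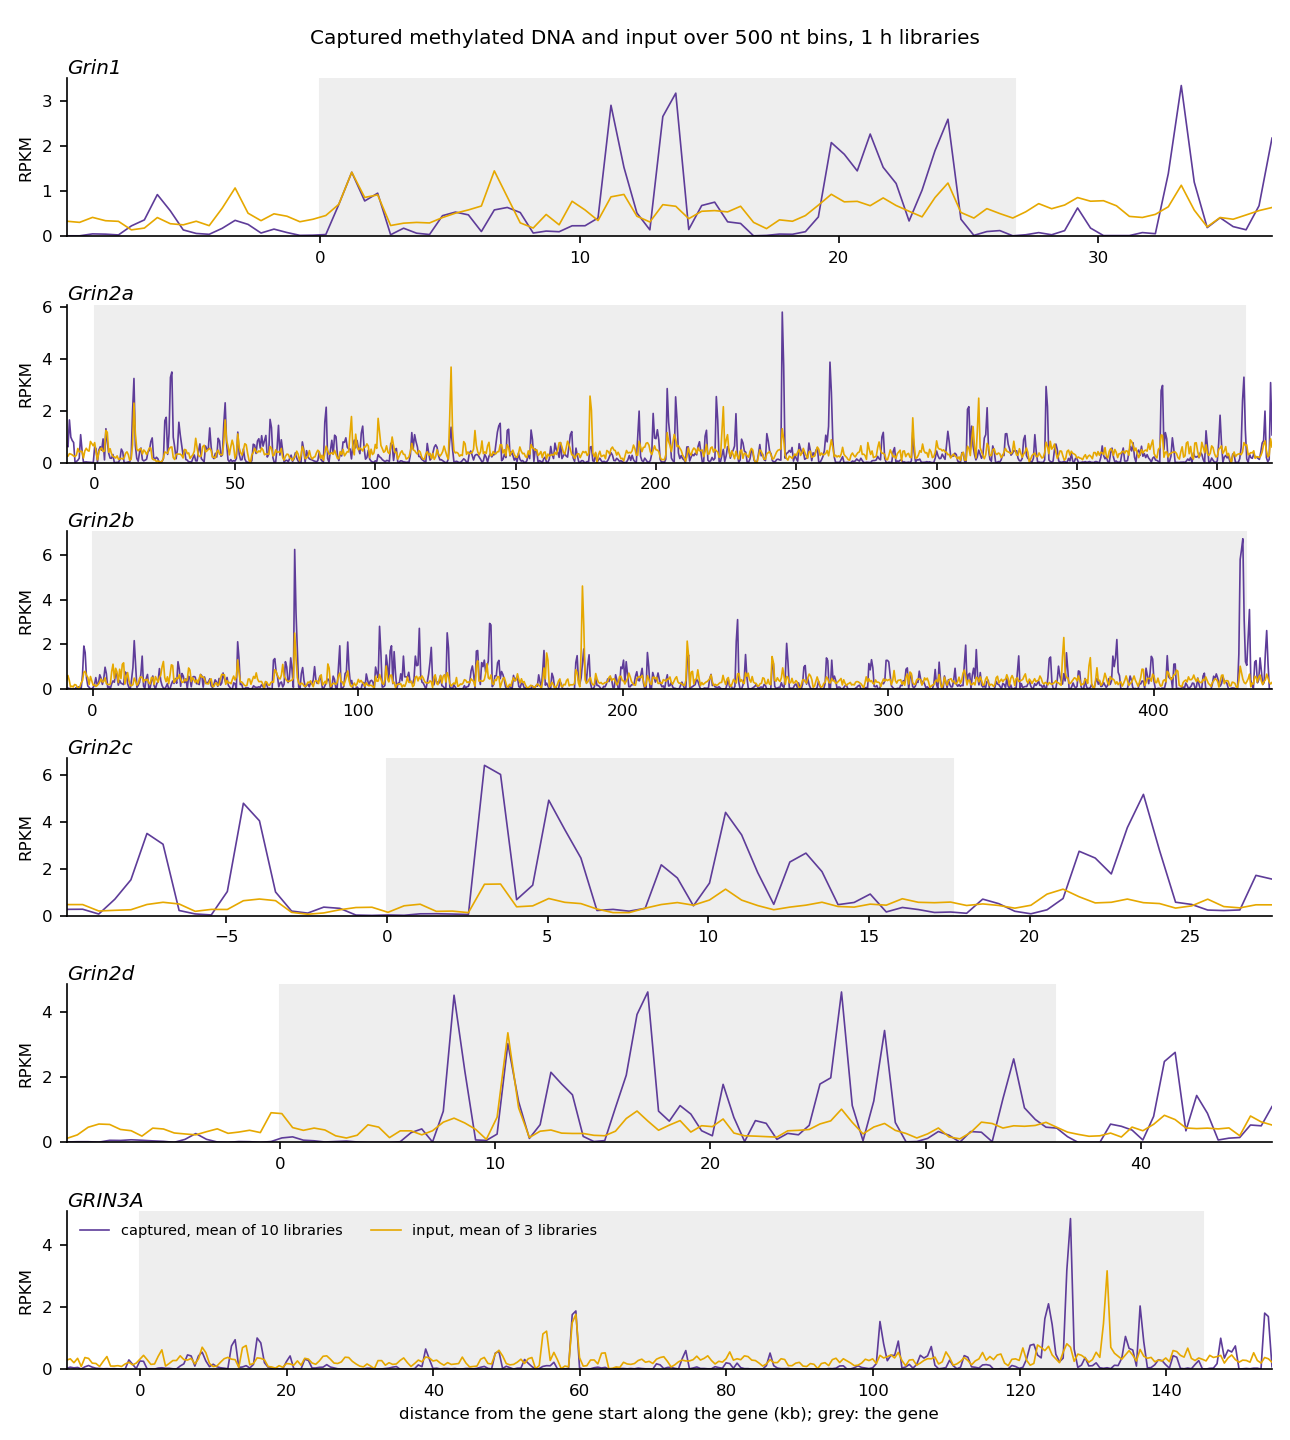
Mean RPKM per 500 nt bin over each gene and 10 kb either side, against distance from the gene start along the gene in kb, in the 10 captured (purple) and 3 input (yellow) libraries at 1 h; the gene is shaded grey. Captured peaks stand inside the shaded genes, the highest at the far end of Grin2b (6.72 RPKM), and some stand outside them, and the starts of Grin2c and Grin2d are near 0.

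No bin of the 6 genes was called in any of the 6 MBD comparisons. A count of 0 does not show that no bin differed. Bins were tested where the captured mean reached 1 RPKM and 2 times input: 188 at 1 h (9 in Grin1, 61 in Grin2a, 76 in Grin2b, 15 in Grin2c, 18 in Grin2d and 9 in GRIN3A) and 17 at 24 h (4 in Grin2a, 11 in Grin2b, 1 each in Grin2d and GRIN3A). At 1 h the share of all 350378 tested bins called by limma was 0.016% for threat against naive, 0.00285% for place against naive and 0.0174% for threat against place. At 24 h it was 0.0105%, 0.0082% and 7.7% of 85335 bins. At an unadjusted p under 0.05 there were 29, 17 and 14 bins of the subunit genes at 1 h (15.4%, 9.04% and 7.45% of the 188), beside 15.4%, 3.34% and 9.98% of all tested bins. At 24 h there were 5, 1 and 8 (29.4%, 5.88% and 47.1% of the 17), beside 23.1%, 4.28% and 37.1% of all. edgeR's quasi-likelihood test on the recovered reads also called 0 in each comparison, with 14, 16 and 18 bins under 0.05 at 1 h and 0, 1 and 1 at 24 h.

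At 1 h the median log2 difference of the 188 subunit bins was 0.21 for threat against naive, 0.09 for place against naive and 0.10 for threat against place, beside 0.17, 0.04 and 0.13 over all tested bins. At 24 h the medians of the 17 bins were 0.20, 0.01 and 0.32, beside 0.23, -0.04 and 0.28 over all. The 29 bins under 0.05 for threat 1 h against naive 1 h were all higher. After median-ratio scaling the median over all bins was 0 in every comparison, and 15 (8 of them higher) and 1 (lower) bins of the subunit genes were under 0.05 for threat 1 h against naive 1 h and for threat 24 h against place 24 h. With that scaling 6 of all 85335 bins were called for threat 24 h against place 24 h, all 6 lower, against 6570 without it.

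The lowest p among these bins was in Grin2b, 117 kb from the gene start (chr4:234141501-234142000). At 1 h it had 1.72, 1.70, 1.85 and 2.06 RPKM in place libraries, against 0.966, 0.930 and 1.00 RPKM in naive libraries. Those groups did not overlap, as for 4.61% of tested bins. The log2(RPKM + 0.25) difference was 0.77 ± 0.177 (limma, adjusted p = 0.371). A bin 74.4 kb from the Grin2b start (chr4:234184001-234184500) had the lowest p for threat 1 h against naive 1 h, with 2.11, 1.80 and 1.67 RPKM in threat and 0.813, 1.08 and 1.05 RPKM in naive libraries (difference 0.78 ± 0.202, adjusted p = 0.13).

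At 24 h the bin at the 3′ end of Grin2b had 2.10, 2.10 and 1.79 RPKM in threat, 1.90, 1.39, 1.32 and 1.36 RPKM in place and 1.23, 1.69 and 1.02 RPKM in naive libraries, against 0.341 RPKM in input. Threat exceeded naive by 0.54 ± 0.171 (limma, adjusted p = 0.114). Threat exceeded place by 0.38 ± 0.160 (adjusted p = 0.0959). The lowest adjusted p of any subunit bin was 0.0728, in Grin2a 228 kb from the start, with 2.04, 2.57 and 2.22 RPKM in threat 24 h and 1.62, 1.89, 1.4 and 1.74 RPKM in place 24 h libraries.

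Averaging over whole genes gave no call either. All 6 gene bodies were tested, and called genes made up 0.0054% of 18522 for threat 1 h against naive 1 h and 0% in the other 5 comparisons. At an unadjusted p under 0.05 there was 1 of the 6 genes for place against naive at 1 h, beside 3.58% of all genes. At 24 h there were 2 for threat against naive, 1 for place against naive and 2 for threat against place, beside 20%, 4.36% and 26.4% of all genes. For Grin1 at 24 h the gene body difference was 0.10 ± 0.0311 for threat against naive (limma, adjusted p = 0.191). GRIN3A, whose RNA was higher at 24 h, had 0.263 ± 0.00365 RPKM in threat 24 h (SD, n = 3), 0.279 ± 0.00560 RPKM in place 24 h (n = 4) and 0.278 ± 0.00418 RPKM in naive 24 h (n = 3), and the threat minus place difference was -0.05 ± 0.0188 (SE; adjusted p = 0.171). Grin2c had 0.498 ± 0.0342 RPKM in threat 24 h, 0.433 ± 0.0315 RPKM in place 24 h and 0.443 ± 0.0341 RPKM in naive 24 h libraries.

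At gene starts 4 of the 6 genes were tested, since the means of Grin2c and Grin2d over captured libraries were below 0.1 RPKM, and none was called. The background was 0.0795% of 15103 genes for threat 24 h against place 24 h and 0% in the other 5 comparisons. In that one comparison 2 subunit genes were under an unadjusted p of 0.05, as were 13.7% of all genes. Grin1 had 0.254, 0.169 and 0.125 RPKM in threat 24 h libraries, against 0.101, 0.106, 0.101 and 0.0833 RPKM in place 24 h libraries. These groups did not overlap, as for 12.2% of tested genes, and the log2(RPKM + 0.25) difference was 0.30 ± 0.104 (limma, adjusted p = 0.163). GRIN3A had 0.110, 0.157 and 0.159 RPKM in threat 24 h, against 0.196, 0.212, 0.258 and 0.212 RPKM in place 24 h libraries, again without overlap, and differed by -0.26 ± 0.107 (limma, adjusted p = 0.26).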

How the data were processed

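RNA libraries were directional and polyadenylated, from RNA with RIN above 8, and MBD libraries used MethylMiner capture, per the labels' protocols. The authors deposited FPKM per gene, and RPKM, a signal or coverage value per 500 nt bin. Per the submitters' processing notes, the builds rn5 and mm10 and the tools edgeR, DESeq2, Bowtie and TopHat 1.4.0 are listed without their roles. The tables are titled GRCm38, but their chromosome 1 bins run to 290094000, as in rat rn5, so positions are given in rn5.

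The RNA fit (limma 3.58.1 with trend, on log2(FPKM + 1)) took every gene reaching 1 FPKM in 5 or more libraries and had a mean for each of the 5 groups, leaving 29 residual degrees of freedom; a fold change is on that scale, which understates changes of low genes. Captured libraries of each time were fitted on log2(RPKM + 0.25) over bins, and over mean RPKM per gene body or within 1 kb of the gene start where it reached 0.1 RPKM. Whole reads were recovered from the RPKM signal for edgeR 4.0.16. P-values were Benjamini-Hochberg adjusted over all features tested, with a threshold of 0.05. The median tested bin had 35 reads a library at 1 h, and 41 at the later time, and intervals of counting do not cover PCR duplicates. The scripts were tested on simulated data.

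The members and lists were chosen with earlier results of these data known. All 6 members are named in every contrast, together with called partner genes, the highest and lowest-p bins, and the 3 most similar genes. Libraries were taken as unpaired, since no pairing is labelled. Deviations of same-numbered libraries correlated above 0.1 in 17 of 58 RNA pairs and 0 of 9 MBD pairs at each time. Their median r in RNA was -0.0426, beside 0.00275 for other pairs. Pairs above 0.1 were not counted among other pairs, so these values do not settle whether numbers pair libraries. Alternatives were other pseudocounts, filters, scalings, array weights, restricted fits, a replicate block, left-out libraries and the naive blocks.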

Additional observations from a re-analysis of the deposited data

Results flagged for a closer look

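Among 59 groups of 4 to 10 libraries examined (the RNA of each gene, the gene body and gene start signal of the place MBD groups, and the Grin2a to Grin2b ratio), 2 held a library far from the others. Chance alone flags about 1 in 20 such groups. Naive library 6 had 3.59 FPKM of GRIN3A, while the other 8 naive libraries had 1.38 to 2.46 FPKM. Place 1 h library 4 had 0.0627 RPKM at the gene start of GRIN3A, while the other 3 had 0.156 to 0.175 RPKM.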

How the results depend on the processing

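The count of called subunit genes was 2 in threat 24 h against naive, in threat 24 h against threat 1 h and in place 24 h against place 1 h, and 0 elsewhere. For threat 24 h against naive it was 1 without a filter, with a filter of 5 FPKM (which removes GRIN3A) and with array weights, and 0 when the fit was limited to those groups or to naive libraries 5 to 9. It was 1 in threat 24 h against threat 1 h with the 5 FPKM filter, and 1 in place 24 h against place 1 h with that filter or with none. It was 3 with array weights in both 24 h against 1 h comparisons (Grin2b added), and 3 after quantile normalization in place 24 h against place 1 h (Grin1 added). For place 24 h against naive it was 1 with array weights and 2 with naive libraries 1 to 4 only. With naive libraries 5 to 9 only it was 1 for threat 1 h and 2 for place 1 h against naive. Leaving out 1 library gave 1 to 2 for threat 24 h against naive and for place 24 h against place 1 h, and 2 to 3 for threat 24 h against threat 1 h. The cause was not tested, except that the 5 FPKM filter leaves GRIN3A untested.

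With a replicate block the count was 1 for place 24 h against naive (Grin2c, adjusted p = 0.0263), and 1 MBD bin each was called at 24 h for threat against naive and threat against place. The block moved no other count of subunit genes or bins. Over all tested bins at 24 h, calls rose with it from 9 to 3077 for threat against naive. For threat against place they rose from 6570 to 12451. The labels do not say what same-numbered libraries share. Leaving out 1 library gave 0 to 2 called bins for threat 1 h against naive 1 h (2 without threat 1 h library 3) and 0 to 3 for threat 24 h against place 24 h (3 without place 24 h library 1). The Grin2a to Grin2b ratio passed the threshold in none of 127 alternatives. Of 1302 alternatives for single RNA differences, 25 lost a call, 12 gained one and 47 turned the sign of an uncalled difference, and none turned a called one. Without threat 1 h libraries 4 and 7, GRIN3A still rose by 0.71 and Grin2c differed by -0.44 in threat 24 h against threat 1 h.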
